A study of Mus musculus with 12 samples.

Results

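The BCL2 family sets whether the outer membrane of the mitochondrion is opened during apoptosis. Its survival proteins hold the death proteins in check, its BH3-only proteins carry stress signals, and its effectors form the pores that let cytochrome c out. Naive B cells are known to lean on BCL2 for survival, and plasma cells on MCL1. The 10 genes followed through B cell division were Bcl2, Bcl2l1 and Mcl1 for survival, Bcl2l11, Bbc3, Pmaip1, Bid and Bad of the BH3-only class, and the effectors Bax and Bak1. They were taken by gene symbol from a table of 21761 genes, in which all 10 members were found, and all 10 were among the 12026 genes with enough reads to be tested.

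Donor B cells were isolated from mouse spleen (B220+ CD43-), stained with a division dye (CFSE or CTV), and put into uMT hosts, which lack B cells of their own but keep T cells and myeloid cells. The hosts were given lipopolysaccharide (LPS), a bacterial product that makes B cells divide and turn into antibody-secreting plasma cells, and donor cells were sorted on day 3. The groups had gone through 0 (Div0), 1 (Div1), 3 (Div3) and 5 (Div5) divisions, and those with at least 8 divisions were parted into CD138-negative cells (Div8neg) and CD138-positive cells (Div8pos), CD138 being a surface protein of plasma cells. Per the labels all samples were female, 8 weeks old and of strain B6.SJL-Ptprca Pepcb/BoyJ, while the design text gives C57/BL6J for the donors. All groups had been through the transfer and received LPS, so Div0 cells were undivided cells of treated hosts and not cells taken straight from an untreated spleen. Every group was sequenced from the same 2 hosts (196 and 197), so n = 2 for every mean ± SD below, and p-values speak for no animals beyond these 2 hosts.

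Counts over genes summed to 11541406 to 14961666 in the 12 libraries. Spike-in RNA, a fixed amount of synthetic RNA added to each sample of 40000 sorted cells, allowed the authors to scale counts to mRNAs per cell, and the deposited totals were 173800 and 151800 mRNAs per cell in Div8pos, against 27360 and 33510 in Div0. Summed B cell markers (5 genes) stood at 5590 to 6150 counts per 1000000 gene counts (CPM) in Div0 to Div5, at 4030 and 4140 CPM in Div8neg and at 905 and 929 CPM in Div8pos. Summed plasma cell markers (5 genes) stood at 5070 and 5150 CPM in Div8pos, against 644 and 770 CPM in Div8neg and 409 and 447 CPM in Div0. The markers thus went with the CD138 labels, and they do not check the division numbers. Myeloid markers (6 genes) summed to 18.8 to 73.3 CPM in Div0 to Div8neg and to 7.12 and 9.34 CPM in Div8pos, T cell markers (5 genes) to at most 2.31 CPM and NK cell markers (2 genes) to at most 0.77 CPM. Erythroid markers (2 of 3 genes in the table) summed to at most 14.9 CPM. The part of these other cells in the results was not tested.

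Each member is described on 2 scales. The relative scale is CPM and asks what share of the mRNA a gene takes, and it was tested with edgeR's quasi-likelihood test. The per-cell scale is mRNAs per cell, divided by exon length and scaled by spike-ins, and it was tested with limma on log2(mRNAs per cell + 0.1), which understates the change of low genes. The threshold for a call was 0.05 for the p-value adjusted by Benjamini-Hochberg over all genes of a comparison, and "rose", "fell", "higher" and "lower" are kept for called genes. The 2 scales differ by the total mRNA of the cells, and the median gene of all those tested stood 1.41 higher in Div8neg and 1.84 higher in Div8pos than in Div0 on the per-cell log2 scale. All genes of a library share 1 spike-in factor, so per-cell calls of different genes are not independent. Limma pooled the spread over genes, and the members' per-cell SEs were nearly the same, at 0.22 to 0.23. Per-cell p-values thus do not rest on each gene's own spread between the 2 hosts. They are too small for 2 libraries against 2, and their size is not a measure of certainty. In sorted bulk cells, a level shared by all cells cannot be told apart from a high level in some of them.

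Among the 10 members, Bcl2 and Bcl2l1 had the largest fold changes in Div8pos against Div8neg, Bcl2 being lower and Bcl2l1 higher. Survival genes outside the 10 members are given further below. Bcl2 (Entrez 12043) encodes the survival protein BCL2 and Bcl2l1 (Entrez 12048) encodes BCL-XL, and the RefSeq start regions of both genes are shown because they moved in opposite directions. The windows are the 250 bases before the start, on the GRCm38.p6 build, while the counts were made on mm9. RefSeq windows were found for 9 of the 10 members. Bcl2 had 1 window, chr1:106714291-106714540 on the minus strand. For Bcl2l1 the most upstream of 3 windows is shown, chr2:152831729-152831978, also on the minus strand. Capitals mark matches, on either strand, to GAAAG (a core of sites for BLIMP1, the plasma cell repressor), TGACGT (an ATF or CRE site) and GGGCGG (the GC box of SP factors).
Bcl2: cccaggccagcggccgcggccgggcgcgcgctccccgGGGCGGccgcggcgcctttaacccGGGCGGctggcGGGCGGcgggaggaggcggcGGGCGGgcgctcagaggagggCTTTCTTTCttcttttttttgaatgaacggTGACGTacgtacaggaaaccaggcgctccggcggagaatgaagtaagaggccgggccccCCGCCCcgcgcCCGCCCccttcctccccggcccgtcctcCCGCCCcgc
Bcl2l1: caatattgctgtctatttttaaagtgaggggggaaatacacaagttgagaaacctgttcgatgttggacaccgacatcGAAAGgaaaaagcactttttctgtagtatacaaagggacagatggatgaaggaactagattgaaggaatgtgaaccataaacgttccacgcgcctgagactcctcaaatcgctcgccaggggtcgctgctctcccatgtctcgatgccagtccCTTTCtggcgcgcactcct

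The Bcl2 window held 7 matches to GGGCGG, 2 to GAAAG and 1 to TGACGT, and the Bcl2l1 window held 2 matches to GAAAG and 0 to each of the others. Neither held a match to TTCNNNGAA, the letters of STAT sites. No matches to different motifs overlapped. Of all 32851 RefSeq windows of this length, 51.5% held GAAAG, 32.7% held GGGCGG, 7.02% held TTCNNNGAA and 6.47% held TGACGT. A match to these letters is a description of the sequence only.

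Bcl2 stood at 20.9 and 19.0 CPM in Div8pos cells (hosts 196 and 197), against 79.9 and 81.1 CPM in Div8neg cells. Both CD138-positive libraries were far below both CD138-negative ones, and Bcl2 was 4.03-fold lower in Div8pos (log2 fold change -2.01, SE 0.09, adjusted p = 8.98e-12, edgeR). Per cell, Bcl2 stood at 1.08 and 0.875 mRNAs in Div8pos, against 2.56 and 2.82 mRNAs in Div8neg, and was 2.60-fold lower (log2 -1.38, SE 0.22, adjusted p = 6.83e-08, limma). Of the 10 members, Bcl2 was the 1 called lower per cell in Div8pos than in Div8neg.

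Bcl2l1 did the reverse. It stood at 94.7 and 108 CPM in Div8pos cells, against 17.9 and 20.4 CPM in Div8neg cells, and was 5.31-fold higher (log2 2.41, SE 0.11, adjusted p = 1.11e-11, edgeR). Per cell it stood at 9.38 and 9.54 mRNAs in Div8pos, against 1.09 and 1.36 mRNAs in Div8neg, a 7.23-fold difference (log2 2.85, SE 0.22, adjusted p = 3.92e-22, limma). Bcl2l1 was the last of the 10 members by mRNAs per cell in every group from Div0 to Div8neg, and the fifth in Div8pos. Bcl2 was the last in Div8pos by its mean, though its library values overlapped those of Bbc3.

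Both genes also differed in CD138-negative cells. In cells that had divided without gaining CD138, Bcl2 was 2.10-fold lower in Div8neg than in Div0 on the relative scale (log2 -1.07, SE 0.07, adjusted p = 2.50e-09, edgeR), from means of 80.5 ± 0.82 CPM in Div8neg and 169 ± 16.1 CPM in Div0. Per cell the sign was the opposite, with 2.69 ± 0.18 mRNAs in Div8neg and 1.75 ± 0.048 in Div0 (log2 0.59, SE 0.22, adjusted p = 0.0112, limma), a call lost without the Div0 library of host 196 (adjusted p = 0.0625) or the Div8neg library of host 197 (adjusted p = 0.0974). This per-cell difference lay below the 1.41 of the median gene. Bcl2l1 was higher in Div8neg than in Div0 on both scales, by 0.84 in relative log2 terms (SE 0.14, adjusted p = 6.90e-05, edgeR) and by 2.08 per cell (SE 0.22, adjusted p = 6.71e-15, limma). In Div8pos against Div0, Bcl2 was 8.46-fold lower and Bcl2l1 9.52-fold higher on the relative scale (adjusted p = 1.58e-14 and 4.35e-13, edgeR).

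Mcl1 (Entrez 17210), which encodes a short-lived survival protein needed by plasma cells, was the most abundant member per cell in each of the 6 groups, though in Div8neg its library values overlapped those of Bak1. It stood at 71.7 and 62.3 mRNAs per cell in Div8pos, against 30.6 and 33.2 in Div8neg, and was 2.09-fold higher (log2 1.07, SE 0.23, adjusted p = 2.69e-05, limma). Its share of the mRNA ran the other way in the dividing CD138-negative cells. Mcl1 averaged 697, 615, 561, 482 and 430 CPM in Div0, Div1, Div3, Div5 and Div8neg, with SDs of 0.0707 to 43.1 CPM, and then 617 ± 10.4 CPM in Div8pos. It was 1.62-fold lower in Div8neg than in Div0 (log2 -0.70, SE 0.06, adjusted p = 3.13e-08) and 1.44-fold higher in Div8pos than in Div8neg (log2 0.52, SE 0.06, adjusted p = 7.01e-07, edgeR). Per cell Mcl1 was higher in Div8neg than in Div0 (log2 0.98, SE 0.23, adjusted p = 4.68e-05, limma), by less than the 1.41 of the median gene.

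**Figure D1:**
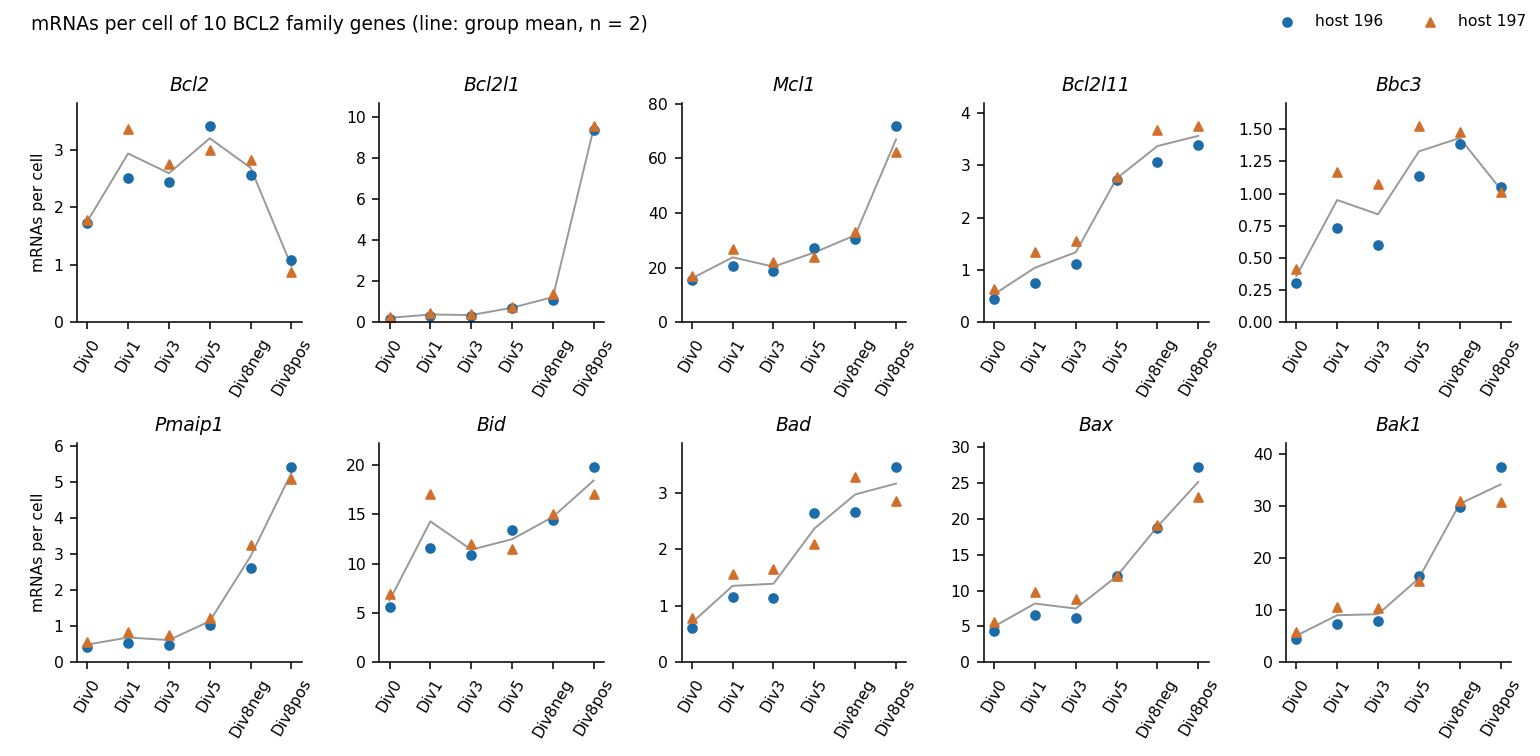
mRNAs per cell (y axis, linear, a scale of its own in each panel) of the 10 members in the 6 sorted groups (x axis), with 1 point per host and a line through the group means. Bcl2l1 stands at 0.174 to 1.36 mRNAs per cell in Div0 to Div8neg and at 9.38 and 9.54 in Div8pos, where Bcl2 is at 1.08 and 0.875.

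Of the BH3-only genes, Bcl2l11, Bbc3, Bid and Bad were lower in Div8pos than in Div8neg on the relative scale, and Pmaip1 was higher. In Div8pos against Div8neg, 9 of the 10 members were called on the relative scale, 3 higher and 6 lower, against 72.0% of all genes tested (36.6% higher, 35.4% lower). Per cell 4 of the 10 members were called, 3 higher and 1 lower, against 68.4% of all genes (52.1% higher, 16.3% lower). The median log2 fold change of the members was -0.31 relative and 0.24 per cell, beside 0.01 and 0.49 for all genes.

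Pmaip1 (Entrez 58801), which encodes NOXA, a BH3-only protein that binds MCL1, was the 1 BH3-only member called per cell in Div8pos against Div8neg. It stood at 5.44 and 5.09 mRNAs per cell in Div8pos, against 2.63 and 3.27 in Div8neg (log2 0.82, SE 0.23, adjusted p = 0.00104, limma). On the relative scale it stood at 36.1 and 38.0 CPM in Div8pos, against 28.2 and 32.2 CPM in Div8neg, and was called (log2 0.30, SE 0.12, adjusted p = 0.0311, edgeR), but not with DESeq2 (adjusted p = 0.0613). The relative call was also lost without the Div8neg library of host 196 (adjusted p = 0.230) or without the Div8pos library of host 196 (0.0563) or 197 (0.132).

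Pmaip1 moved earlier too, as it was 1.82-fold higher in Div8neg than in Div5 (log2 0.87, SE 0.13, adjusted p = 3.76e-05, edgeR) and 2.44-fold higher per cell (log2 1.29, SE 0.23, adjusted p = 3.73e-06, limma). Over the 6 groups from Div0 to Div8pos it averaged 0.495, 0.691, 0.618, 1.14, 2.95 and 5.26 mRNAs per cell. The first 4 of these levels lay within 0.433 and 1.24 mRNAs per cell, and both libraries of Div8neg and of Div8pos lay above them.

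Bbc3 (Entrez 170770), which encodes PUMA, a BH3-only protein induced by p53, was lower in Div8pos than in Div8neg as a share of the mRNA. It stood at 5.20 and 5.64 CPM in Div8pos, against 11.0 and 10.9 CPM in Div8neg (log2 -1.01, SE 0.22, adjusted p = 0.000707, edgeR). Its counts were low, with 129 in both Div8pos libraries together and 300 in both Div8neg libraries. Per cell the libraries stood at 1.05 and 1.01 mRNAs in Div8pos, against 1.38 and 1.48 in Div8neg, and the difference was not called (log2 -0.43, SE 0.23, adjusted p = 0.0846, limma).

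Bcl2l11 (Entrez 12125), which encodes BIM, the BH3-only protein that limits the life of lymphocytes, was higher after division, and was not called per cell at the CD138 split. It averaged 0.536, 1.04, 1.34, 2.75, 3.37 and 3.56 mRNAs per cell from Div0 to Div8pos. It was 5.49-fold higher per cell in Div8neg than in Div0 (log2 2.46, SE 0.23, adjusted p = 1.65e-17, limma) and 1.98-fold higher on the relative scale (log2 0.98, SE 0.12, adjusted p = 3.08e-06, edgeR). Between Div8pos and Div8neg the libraries overlapped closely per cell, with 3.38 and 3.74 mRNAs in Div8pos, against 3.06 and 3.68 in Div8neg (log2 0.08, SE 0.23, adjusted p = 0.759, limma). Its share of the mRNA was lower in Div8pos (log2 -0.46, SE 0.12, adjusted p = 0.00286, edgeR), a call lost without the Div8pos library of host 196 (adjusted p = 0.0721).

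Bid (Entrez 12122), which links death receptors to mitochondria once caspase 8 has cut it, was the most abundant BH3-only member in every group. It made up 75.1 ± 1.03% of the summed mRNAs per cell of the 5 BH3-only members in Div0, 78.1 ± 0.59% in Div1, 73.5 ± 4.32% in Div3, 62.1 ± 2.73% in Div5, 58.0 ± 2.53% in Div8neg and 58.5 ± 1.81% in Div8pos. On the relative scale Bid peaked early, at 259 and 269 CPM in Div1, against 193 and 198 CPM in Div0 (log2 0.43, SE 0.06, adjusted p = 0.000243, edgeR). It was then lower at each of the later steps that were called, in Div5 against Div3 (log2 -0.42), in Div8neg against Div5 (log2 -0.24) and in Div8pos against Div8neg (log2 -0.23), with adjusted p-values of 0.000223, 0.00424 and 0.00446 (edgeR). Per cell it was higher in Div8neg than in Div0, at 14.47 and 15.01 mRNAs in Div8neg, against 5.64 and 6.92 in Div0 (log2 1.23, SE 0.23, adjusted p = 5.39e-07, limma). That difference also lay below the 1.41 of the median gene.

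Bad (Entrez 12015), a BH3-only protein that is held inactive by growth factor signals, stood at 12.8 and 11.9 CPM in Div8pos, against 15.9 and 18.0 CPM in Div8neg (log2 -0.45, SE 0.12, adjusted p = 0.00350, edgeR). Per cell its libraries overlapped, with 3.46 and 2.86 mRNAs in Div8pos, against 2.67 and 3.27 in Div8neg (log2 0.09, SE 0.23, adjusted p = 0.738, limma).

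The effectors Bak1 (Entrez 12018) and Bax (Entrez 12028) were similar in Div0 and drew apart with division. Bak1 had 29.9 and 31.1 mRNAs per cell in Div8neg, against 4.45 and 5.82 in Div0, and was 5.89-fold higher (log2 2.56, SE 0.23, adjusted p = 9.57e-19, limma). Bax had 18.7 and 19.1 mRNAs per cell in Div8neg, against 4.41 and 5.59 in Div0, and was 3.75-fold higher (log2 1.91, SE 0.23, adjusted p = 7.96e-13, limma). As a share of the mRNA, Bak1 was 1.87-fold higher (log2 0.90, SE 0.06, adjusted p = 4.76e-09) and Bax 1.19-fold higher (log2 0.25, SE 0.08, adjusted p = 0.0103, edgeR) in Div8neg than in Div0. The Bax call was lost without the Div0 or the Div8neg library of host 196 (adjusted p = 0.0868 and 0.0906).

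Bak1 made up 50.6 ± 0.57% of the sum of both effectors in Div0 and 52.6 ± 0.49, 55.5 ± 1.55, 57.4 ± 1.15, 61.7 ± 0.38 and 57.6 ± 0.55% in Div1, Div3, Div5, Div8neg and Div8pos. In Div8pos against Div8neg neither effector was called per cell (Bak1 log2 0.16, adjusted p = 0.540, and Bax log2 0.40, adjusted p = 0.107, SE 0.23 each, limma). The relative level of Bak1 was lower in Div8pos, with 190 and 175 CPM there, against 244 and 233 CPM in Div8neg (log2 -0.39, SE 0.06, adjusted p = 4.24e-05, edgeR).

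**Figure D2:**
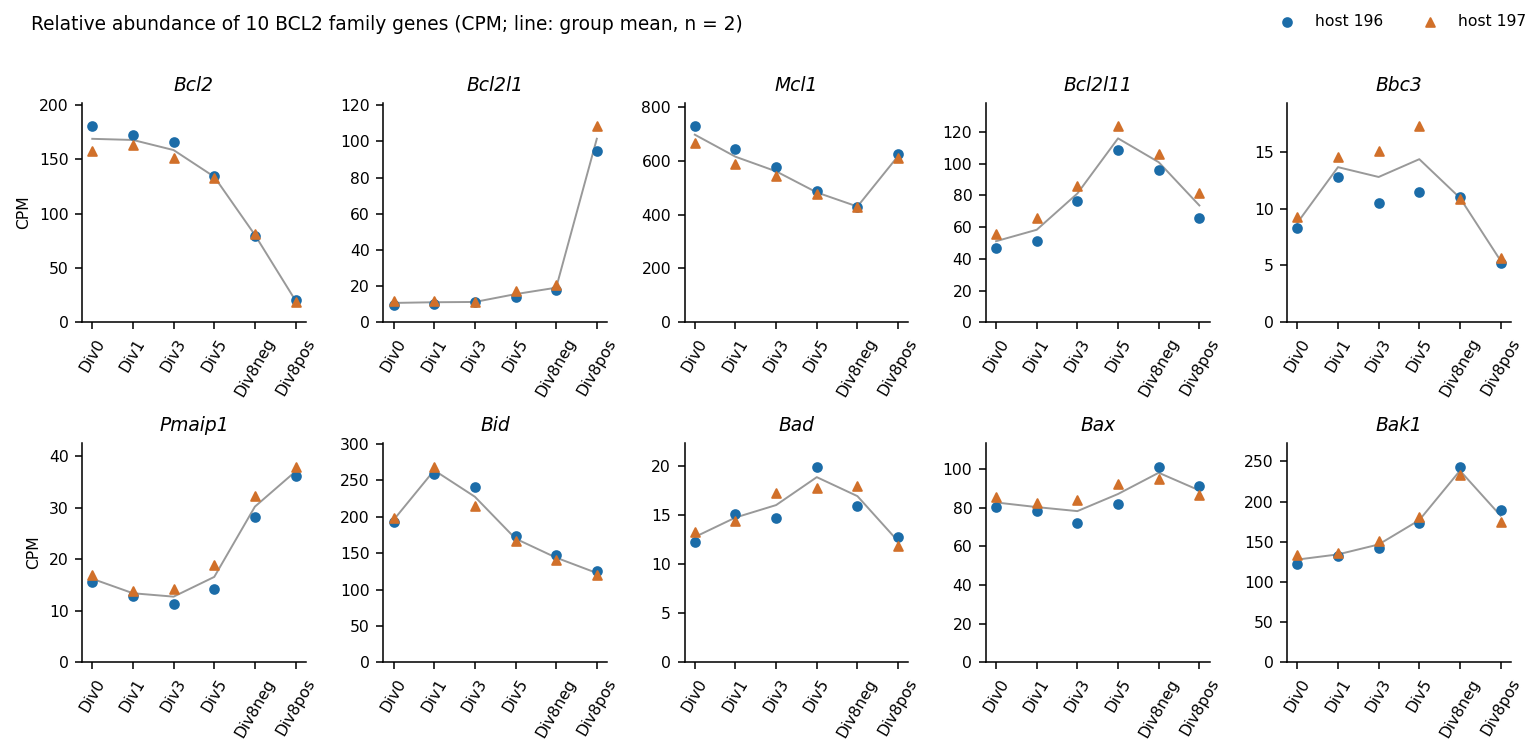
CPM (y axis, a scale of its own in each panel) of the 10 members in the 6 sorted groups (x axis), with 1 point per host and a line through the group means. Bcl2 and Mcl1 decline from Div0 to Div8neg on this scale, Pmaip1 and Bak1 stand higher in Div8neg than in Div0, and Bcl2l1 departs from all of these in Div8pos at 94.7 and 108 CPM.

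Over the whole course of division without CD138, Div8neg against Div0, 9 of the 10 members were called on the relative scale. Of these, 6 were higher (Bcl2l1, Bcl2l11, Pmaip1, Bad, Bax and Bak1) and 3 lower (Bcl2, Mcl1 and Bid), against 71.0% of all genes called (35.3% higher, 35.7% lower). The call for Bad (log2 0.41, SE 0.12, adjusted p = 0.00672, edgeR) was lost without the Div0 library of host 196 (adjusted p = 0.0580) or the Div8neg library of host 197 (0.0706). Per cell all 10 were higher, against 90.0% of all genes called and 88.4% called higher. The members' median per-cell log2 fold change was 1.92, and that of all genes was 1.41. The 6 members with a higher share included 1 of the 3 survival genes and both effectors. The 3 with a lower share included the other 2 survival genes. The BH3-only members were split, with Bcl2l11, Pmaip1 and Bad higher, Bid lower and Bbc3 not called (adjusted p = 0.162, edgeR).

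In Div8pos against Div0, 8 of the 10 members were called on the relative scale, 4 higher and 4 lower, against 82.4% of all genes. Per cell 9 were higher and Bcl2 was lower, against 89.1% of all genes called, 82.5% higher and 6.65% lower. Bcl2 stood at 1.08 and 0.875 mRNAs per cell in Div8pos, against 1.72 and 1.79 in Div0 (log2 -0.79, SE 0.22, adjusted p = 0.000733, limma). Bcl2l1 had the largest per-cell difference of the members, with a log2 fold change of 4.93 (SE 0.22, adjusted p = 1.88e-40, limma). The relative calls that rested on single libraries were those of Mcl1 (log2 -0.17, adjusted p = 0.0109, and 0.141 without the Div0 library of host 196 or 0.0596 without the Div8pos library of host 197) and Bbc3 (log2 -0.69, adjusted p = 0.0123, and 0.0769 without the Div8pos library of host 196 or 0.0605 without the Div0 library of host 197).

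**Figure D3:**
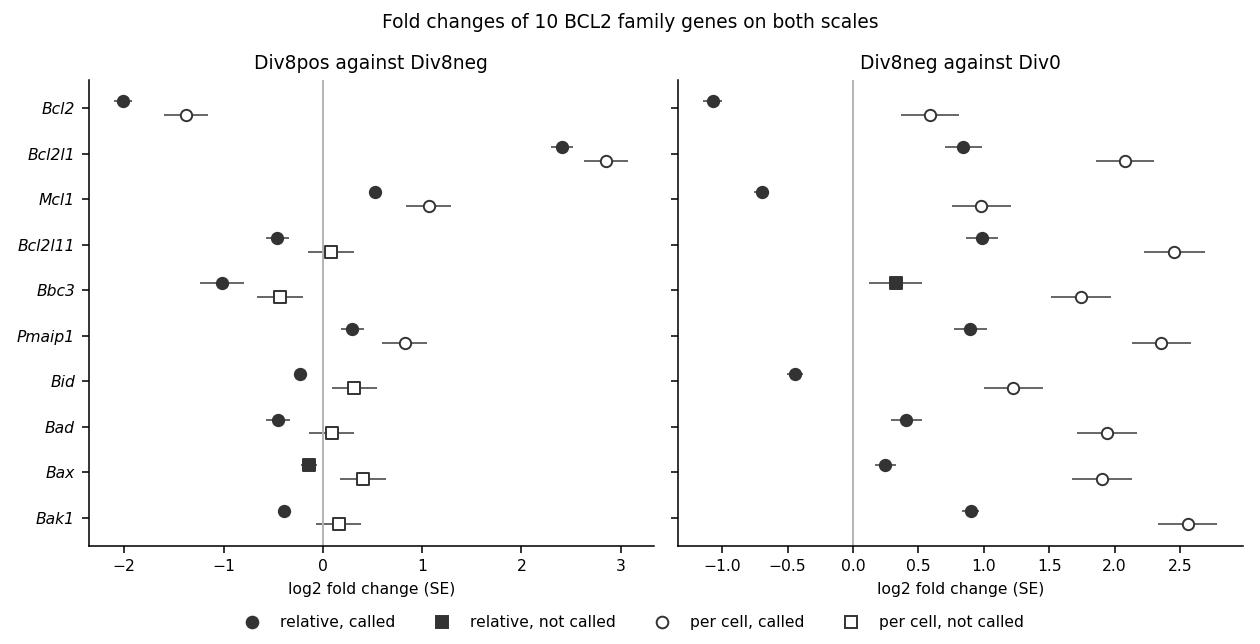
Log2 fold changes (x axis, with SE bars) of the 10 members (y axis) in Div8pos against Div8neg (left) and Div8neg against Div0 (right), on the relative scale (filled) and per cell (open), with circles for called genes and squares for genes not called. On the left Bcl2 (-2.01 relative) and Bcl2l1 (2.41 relative) lie at opposite ends, and on the right all 10 open points lie above 0.

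The successive steps from Div0 to Div8neg each gave fewer member calls than Div8neg against Div0, on either scale. In Div1 against Div0, 1 of the 10 members (Bid) was called on the relative scale, against 9.35% of all genes, and with the host as a block Mcl1 (log2 -0.18, adjusted p = 0.00991) and Bbc3 (log2 0.63, adjusted p = 0.00848) were called as well (edgeR). Per cell 9 of the 10 members were higher in Div1, against 77.1% of all genes called and 77% called higher. Pmaip1 was not called per cell (log2 0.39, SE 0.23, adjusted p = 0.103, limma). Without the Div0 library of host 196, or without the Div1 library of host 197, 2 of those 9 per-cell calls were left, Bbc3 and Bid. The largest of them was Bbc3, with 0.729 and 1.17 mRNAs per cell in Div1, against 0.309 and 0.411 in Div0 (log2 1.17, SE 0.23, adjusted p = 6.35e-05, limma).

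In Div3 against Div1 the 1 relative call was Bcl2l11 (log2 0.47, SE 0.12, adjusted p = 0.0464), against 3.42% of all genes, and with the host as a block Bid was called too (log2 -0.22, adjusted p = 0.0159, edgeR). The Bcl2l11 call was lost with only these 2 groups in the fit (adjusted p = 0.0668) and without the Div1 library of host 196 (0.402) or the Div3 library of host 197 (0.310). Per cell 0 of the 10 members passed in Div3 against Div1, against 0.516% of all genes called by limma. At an unadjusted p under 0.05 the count was also 0, as it was with edgeR on spike-in library sizes.

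In Div5 against Div3, 6 of the 10 members were called on the relative scale, against 26.6% of all genes. Bcl2l1, Bcl2l11 and Bak1 were higher, with log2 fold changes of 0.47, 0.51 and 0.27, and Bcl2, Mcl1 and Bid were lower, with -0.24, -0.22 and -0.42 (edgeR). With the host as a block Pmaip1 was called as well (log2 0.37, adjusted p = 0.0133). These calls leaned on single libraries, since 1 of the 6 (Bid) held without the Div5 library of host 197 and 2 of the 6 (Bid and Bcl2l11) without the Div3 library of host 196. Per cell 7 of the 10 were higher in Div5, namely all but Bcl2, Mcl1 and Bid, against 43.2% of all genes called and 42.7% called higher. With no filter on low values, or without the Div3 library of host 196, 0 of these per-cell calls were left, and 4 were left when the Div5 library of host 196, or that of host 197, was left out.

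In Div8neg against Div5, 5 of the 10 members were called on the relative scale, against 53.4% of all genes. Pmaip1 and Bak1 were higher and Bcl2, Mcl1 and Bid lower, and the Mcl1 call (log2 -0.17, adjusted p = 0.0250, edgeR) was lost without any 1 of the 4 libraries (adjusted p 0.0628 to 0.128). With the host as a block 9 were called, with Bcl2l1 (log2 0.30, adjusted p = 0.0127), Bax (log2 0.18, adjusted p = 0.0347), Bcl2l11 (log2 -0.20, adjusted p = 0.00563) and Bbc3 (log2 -0.37, adjusted p = 0.0368) added (edgeR). Per cell 4 of the 10 members were higher (Bcl2l1, Pmaip1, Bax and Bak1), against 45.8% of all genes called and 42.3% called higher. The per-cell call for Bax (log2 0.65, SE 0.23, adjusted p = 0.0149, limma) was lost without any 1 of the 4 libraries and with no filter (adjusted p = 0.0645), and that for Bcl2l1 without the Div5 library of host 196 (0.0620) or the Div8neg library of host 197 (0.143).

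The makeup of the family follows from mRNAs per cell, which are per length and can be set side by side between genes. They use the union of each gene's annotated exons, 7738 bp for Bcl2, 4042 bp for Bcl2l1 and 3487 bp for Mcl1, so a gene whose cells use a shorter transcript is understated. Mcl1 made up 86.5 to 89.1% of the summed mRNAs of the 3 survival members in all 6 groups, as group means. Bcl2l1 made up 12.3 ± 1.2% in Div8pos, against 3.42 ± 0.31% in Div8neg and 1.19 ± 0.26% in Div0. Bcl2 made up 1.26 ± 0.078% in Div8pos, against 7.51 ± 0.046% in Div8neg and 9.72 ± 0.32% in Div0. There were 8.68 and 10.9 Bcl2l1 mRNAs per Bcl2 mRNA in Div8pos, against 0.428 and 0.482 in Div8neg and 0.101 and 0.145 in Div0.

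The ratio of the 3 survival members to the death members was read per library, as a description with no test. Over the 5 BH3-only members it was 2.17 ± 0.21 in Div0, 1.50 ± 0.14 in Div1, 1.50 ± 0.027 in Div3, 1.47 ± 0.037 in Div5, 1.41 ± 0.0097 in Div8neg and 2.46 ± 0.022 in Div8pos. Over the 2 effectors it was 1.80 ± 0.21, 1.59 ± 0.14, 1.41 ± 0.16, 1.05 ± 0.066, 0.725 ± 0.030 and 1.31 ± 0.061 in the same order. Both ratios were thus higher in both libraries of Div8pos than in both of Div8neg.

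Those ratios leave out the A1 genes Bcl2a1a, Bcl2a1b and Bcl2a1d, survival genes of activated B cells that are near-identical copies, so that reads cannot be split safely between them and only their sum is used for levels. The A1 genes summed to 9.19 ± 0.33 mRNAs per cell in Div8pos, against 46.3 ± 0.43 in Div8neg and 15.5 ± 2.2 in Div0. In Div1, Div3, Div5 and Div8neg that sum was above the Mcl1 mean of the same group. Each of the 3 was lower in Div8pos than in Div8neg, with relative log2 fold changes of -2.78, -2.82 and -3.00 (adjusted p = 5.90e-09, 1.19e-13 and 4.01e-13, edgeR). With the A1 genes and Bcl2l2 (BCL-W) added to the survival sum, a choice made after seeing the data, the direction of both ratios between Div8pos and Div8neg turned round. The survival genes per BH3-only mRNA were then 2.82 and 2.80 in Div8pos, against 3.38 and 3.16 in Div8neg, and per effector mRNA 1.44 and 1.55 in Div8pos, against 1.68 and 1.68 in Div8neg. The wider sum itself was 88.4 ± 7.2 mRNAs per cell in Div8pos, against 83.1 ± 1.8 in Div8neg.

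**Figure D4:**
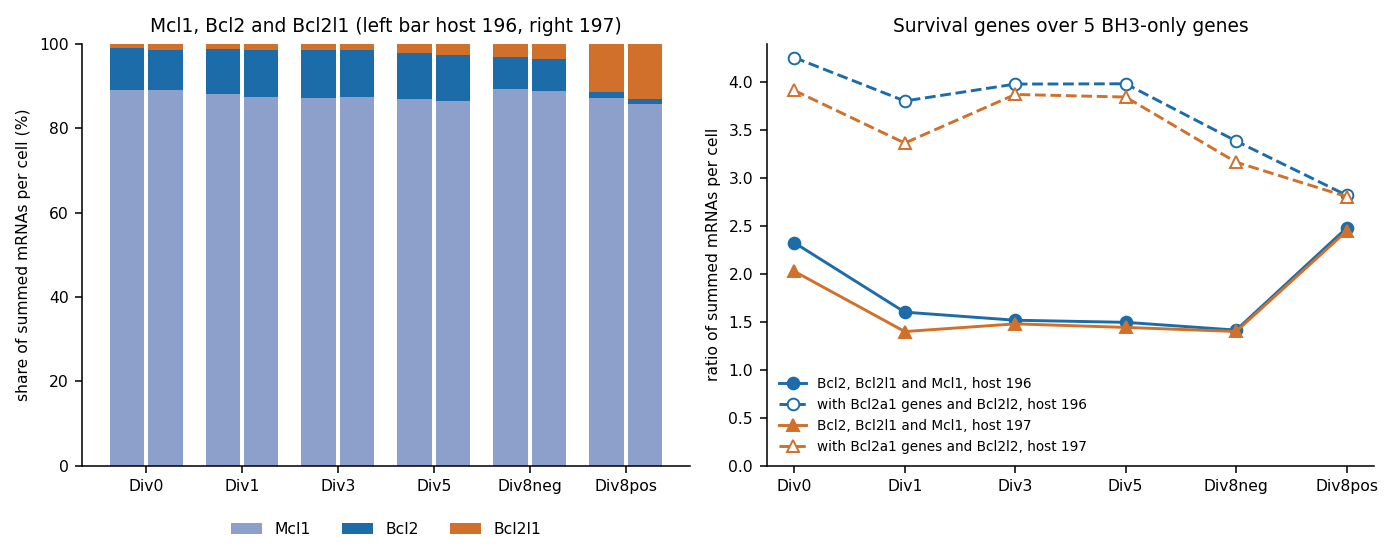
Left, shares (y axis, %) of Mcl1, Bcl2 and Bcl2l1 in their summed mRNAs per cell in the 6 groups, with 1 bar per host. Right, the ratio (y axis) of survival genes to the 5 BH3-only members per host, for the 3 survival members (solid) and with the A1 genes and Bcl2l2 added (dashed): in Div8pos the solid lines are at 2.48 and 2.44, above Div8neg at 1.41 and 1.40, and the dashed lines are at 2.82 and 2.80, below Div8neg at 3.38 and 3.16.

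Of 15 other genes of the wider BCL2 family, 10 had enough reads to be tested. All 10 were called in Div8pos against Div8neg on the relative scale, 4 higher and 6 lower, against 72.0% of all genes (36.6% higher, 35.4% lower), with a median log2 fold change of -0.83 beside 0.01 for all genes. The 4 higher genes were Bcl2l2, the BH3-only gene Bmf, Bcl2l13 and the mitophagy gene Bnip3 (log2 0.28, 0.57, 0.24 and 0.79). The 6 lower ones were the 3 A1 genes, which share reads and are not separate calls, and Bcl2l12, Bcl2l14 and Bnip3l, a mitophagy receptor (log2 -0.41). Bcl2l12 fell to 18.8 ± 1.3 CPM in Div8pos, against 44.7 ± 1.2 CPM in Div8neg (log2 -1.25, SE 0.09, adjusted p = 3.91e-09, edgeR). Bcl2l14 had 2 counts in both Div8pos libraries together and 62 in both Div8neg libraries (adjusted p = 1.85e-05, edgeR).

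In Div1 against Div0 the 3 other family genes called were the A1 genes, higher by 0.54, 0.55 and 0.43 on the relative log2 scale (adjusted p = 0.0217, 3.77e-05 and 0.00118, edgeR), against 9.35% of all genes called. In Div8neg against Div0, 6 of the 10 were called, 2 higher and 4 lower, against 71.0% of all genes, and the largest fall was that of Bnip3, with 1.13 ± 0.022 CPM in Div8neg, against 6.78 ± 0.33 CPM in Div0 (log2 -2.57, SE 0.26, adjusted p = 3.49e-07, edgeR). The other 5 listed genes did not pass the filter. Bcl2a1c, Bcl2l10 and Hrk were at 0 counts in each of the 12 libraries, and Bok and Bik had at most 9 counts over the 2 libraries of a group.

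**Figure D5:**
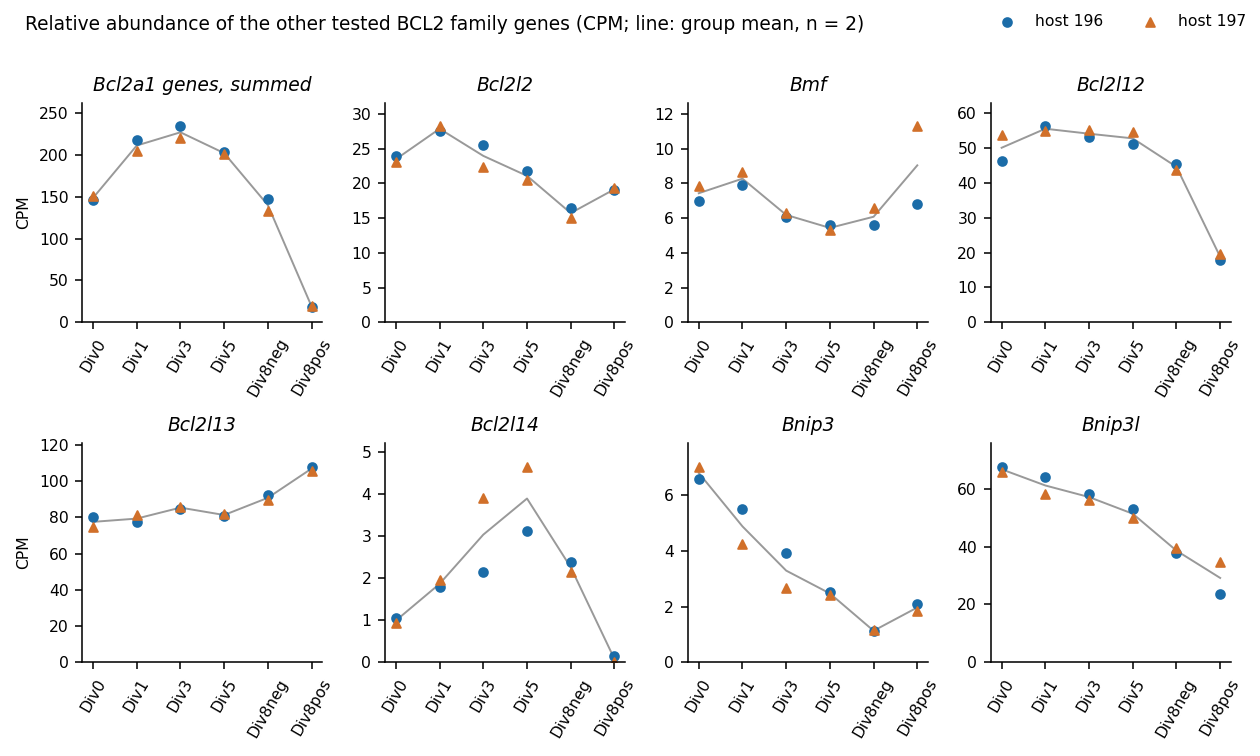
CPM (y axis, a scale of its own in each panel) of the 10 tested genes of the wider BCL2 family in the 6 sorted groups (x axis), with the 3 A1 genes summed in 1 panel, 1 point per host and a line through the group means. The A1 sum averages 149 CPM in Div0, 211 CPM in Div1 and 19.0 CPM in Div8pos, where it is lowest.

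Downstream of the family, 13 of 15 genes of the apoptosome, the caspases and their inhibitors were called in Div8pos against Div8neg on the relative scale, 7 higher and 6 lower, against 72.0% of all genes. Per cell 10 were called, 9 higher and 1 lower, against 68.4% of all genes (52.1% higher, 16.3% lower), so the per-cell share was near that of all genes. Cytochrome c (Cycs), which leaves through the pores of BAX and BAK, stood at 221 ± 2.3 CPM in Div8pos, against 126 ± 0.64 CPM in Div8neg (log2 0.81, SE 0.07, adjusted p = 7.17e-08, edgeR). Casp9, the caspase that the apoptosome activates, moved the other way, with 21.0 ± 0.53 CPM in Div8pos, against 63.0 ± 1.8 CPM in Div8neg (log2 -1.58, SE 0.07, adjusted p = 9.16e-12, edgeR). Casp9 was also lower per cell (log2 -0.98, SE 0.22, adjusted p = 8.64e-05, limma), and was the 1 lower gene of this list there. Birc3, an inhibitor of apoptosis, fell by 1.01 on the relative log2 scale (adjusted p = 1.12e-09, edgeR).

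In Div8neg against Div0, 12 of these 15 genes were called on the relative scale, 6 higher and 6 lower, against 71.0% of all genes (35.3% higher, 35.7% lower). Apaf1, the scaffold of the apoptosome, was among the higher genes (log2 1.15), and Casp6 (log2 -1.21) and Birc3 (log2 -0.94) had the largest falls in share (edgeR). Per cell 14 of the 15 genes were higher and 0 lower, against 88.4% of all genes higher and 1.65% lower. Birc3 averaged 12.2 ± 0.76 mRNAs per cell in Div8neg, against 7.30 ± 0.67 in Div0, and Casp6 1.305 ± 0.32, against 0.938 ± 0.12.

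Of 8 death receptor genes, 6 were called in Div8pos against Div8neg on the relative scale, 3 higher and 3 lower, and 5 per cell, 4 higher and 1 lower, near the 72.0% and 68.4% of all genes. Fas, the receptor for FAS ligand, stood at 6.79 ± 1.14 CPM in Div8pos, against 32.7 ± 3.5 CPM in Div8neg (log2 -2.26, SE 0.13, adjusted p = 3.12e-10, edgeR). It had stood at 32.7 ± 0.86 CPM in Div1, against 13.6 ± 0.15 CPM in Div0 (log2 1.27, SE 0.12, adjusted p = 6.85e-06, edgeR). Tnfrsf10b, the mouse TRAIL receptor, was higher in Div8pos than in Div8neg (log2 1.18, SE 0.17, adjusted p = 1.12e-05, edgeR).

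Of 7 genes that act on the family from above, by transcription or by MCL1 protein turnover, 5 were higher in Div8pos than in Div8neg on the relative scale and 0 were lower, against 36.6% of all genes higher and 35.4% lower. Per cell all 7 were higher, against 52.1% of all genes, with the median gene 0.49 higher on the log2 scale. MCL1 protein and its turnover were not measured in these RNA data. Fbxw7, part of a ubiquitin ligase that marks MCL1, stood at 97.3 ± 0.82 CPM in Div8pos, against 51.2 ± 5.1 CPM in Div8neg (log2 0.93, SE 0.07, adjusted p = 8.74e-09), and Atf4, a stress transcription factor, at 440.0 ± 30.6 CPM, against 234 ± 16.7 CPM (log2 0.91, SE 0.07, adjusted p = 7.97e-09, edgeR). Foxo3, a transcription factor known to act on Bcl2l11, stood at 14.6 ± 2.7 CPM in Div8neg, against 45.6 ± 1.0 CPM in Div0 (log2 -1.65, SE 0.11, adjusted p = 1.62e-09, edgeR), and per cell it was not called there (log2 0.03, SE 0.22, adjusted p = 0.900, limma).

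Genes with profiles most like a member's were taken as the 3 with the highest Pearson r over the 12 libraries on log2 CPM, among 9395 genes, as a description of libraries that share hosts and groups. For Bcl2 they were Tm6sf1 (r = 0.9993), Camta2 and Tmem194b, and for Bcl2l1 they were Wbp5 (r = 0.9968), Nudt9 and Scfd1. For Mcl1 the first was Map3k3 (r = 0.9877), for Pmaip1 Myadm (0.9876), for Bak1 Glud1 (0.9861), for Bid Pde4a (0.9721), for Bcl2l11 Gnas (0.9579), for Bbc3 Fam64a (0.9537), for Bad Grk5 (0.9433) and for Bax Mrps6 (0.9075). No member was among the 3 genes most like another member, and with 9395 genes ranked this does not show that the members' profiles differ.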

How the data were processed

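RNA was sequenced from 12 libraries, 2 hosts for each of 6 sorted groups. Per the labels' protocols, 40000 sorted cells were lysed, ERCC spike-in RNA was added before extraction, and stranded mRNA libraries went through 11 cycles of PCR and were read as 50 bp pairs. The submitters' processing notes name Picard, R 3.2.2 and the mm9 build, per the labels. Which aligner and counter were used is not given in the sources used here. Bisulfite data were not analysed here.

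The deposited counts are whole reads over the exons of a gene, with no normalization. The deposited mRNAs per cell are a signal that the authors scaled with spike-ins: in each library they equal counts over exon length times 1 factor, to within a relative deviation of 5.11e-15, as checked from the values. Rows with no gene symbol (90, 0.0498 to 0.0943% of counts) were left out. Spike-in counts were 113723 to 683173 per library, so the per-cell factor rests on fewer reads in Div8pos than in Div0.

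Counts were tested with edgeR 4.0.16 (TMM factors, filterByExpr with the 6 groups, quasi-likelihood fit over all 12 libraries with group means) and mRNAs per cell with limma 3.58.1 (trend, log2 of the value plus a pseudocount of 0.1) in R 4.3.3, for 7 comparisons. DESeq2 1.42.0 was an alternative. CPM are counts over TMM-scaled library sizes. Both tests were run on simulated data in which all libraries had the same per-cell factor. The spread of the spike-in factors was thus absent, and the simulation cannot speak for the per-cell calls. With 2 libraries against 2 no exact permutation test can pass 0.05, so none was run. Same-numbered libraries came from the same host per the labels, and the correlation of their deviations from group means was 0.0341 to 0.299 over the 7 comparisons. The main fit had no host term, and the host block was an alternative.

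All 10 members are named. From the other lists, the called genes with the 2 largest fold changes in each direction were open to naming, as was every detected gene of the wider family. One gene open to naming is not reported here, though it stays in the counts of its list. The members, lists and tests were chosen with earlier results of these data known. No group had the number of libraries that a test for outlying samples needs.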

Additional observations from a re-analysis of the deposited data

How the results depend on the processing

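Of 1260 recomputed member values (140 results under each alternative), 1120 kept their direction and their side of the threshold, 76 lost the call, 31 gained one and 33 changed direction. All 33 came from leaving out 1 library for values that were not called. The replicate block, with the host as its term, gave 1713 called genes in Div1 against Div0 on the relative scale (main 1124), 755 in Div3 against Div1 (main 411) and 117 per cell in Div3 against Div1 (main 62). With the block 3, 2 and 9 members were called on the relative scale in Div1 against Div0, Div3 against Div1 and Div8neg against Div5 (main 1, 1 and 5), and it changed no count of member calls by over 1.5 times elsewhere. With no filter on low counts those 3 member counts were 3, 2 and 9 as well, with 738 genes called in Div3 against Div1. RLE factors, or only the 2 groups compared, gave 2 members in Div1 against Div0, and only the 2 groups gave 206 genes and 0 members in Div3 against Div1. Per cell in Div3 against Div1, a pseudocount of 1 gave 28 genes and no filter on low values gave 0. Per cell in Div5 against Div3, no filter gave 228 genes (main 5190) and 0 members (main 7). The cause was not tested.

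Leaving out 1 library in turn, called genes on the relative scale ranged from 608 to 781 in Div1 against Div0, 135 to 310 in Div3 against Div1 and 1211 to 2889 in Div5 against Div3, with 1 to 2, 0 to 2 and 1 to 7 members. Per cell they ranged from 869 to 10297 in Div1 against Div0 (2 to 10 members), 43 to 130 in Div3 against Div1, 299 to 5695 in Div5 against Div3 (0 to 7 members) and 2409 to 3944 in Div8neg against Div5 (2 to 3 members). Among values that changed direction, relative log2 fold changes in Div1 against Div0 spanned -0.10 to 0.091 for Bcl2, -0.090 to 0.23 for Bcl2l1 and -0.085 to 0.0099 for Bax. In Div3 against Div1 they spanned -0.10 to 0.15 for Bcl2l1, -0.39 to 0.13 for Bbc3, -0.25 to 0.071 for Pmaip1 and -0.15 to 0.059 for Bax, and -0.17 to 0.45 for Bbc3 in Div5 against Div3 and -0.10 to 0.010 for Bad in Div8pos against Div0. Per cell in Div3 against Div1 they spanned -0.36 to 0.041 for Bcl2, -0.34 to 0.24 for Bcl2l1, -0.022 to 0.75 for Bcl2l11, -0.55 to 0.20 for Bbc3, -0.41 to 0.13 for Pmaip1, -0.22 to 0.28 for Bad, -0.41 to 0.16 for Bax and -0.22 to 0.31 for Bak1. Per cell they spanned -0.083 to 0.31 for Bbc3 in Div8neg against Div5, and -0.048 to 0.21 for Bcl2l11 and -0.054 to 0.23 for Bad in Div8pos against Div8neg.

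Per-cell values rest on 1 spike-in factor per library and on 2 hosts, and p-values cannot speak for other animals. PCR copies were not separated by molecular tags, so counts are not independent molecules.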
